A study of Mus musculus with 8 samples.

Results

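Cyp3a genes encode cytochrome P450 enzymes of subfamily 3A, and the values of 8 of them (Cyp3a11, Cyp3a13, Cyp3a16, Cyp3a25, Cyp3a41a, Cyp3a41b, Cyp3a44 and Cyp3a59) were compared between livers of MøFoxO1-KO and WT mice. The 8 genes were found by their Ensembl identifiers, which were matched to symbols in GENCODE M21, and they are 8 of the 46517 genes in the count table. At least 1 count was found for 6 of the 8 genes, and 4 had enough counts to enter the test. A search for all symbols that start with Cyp3a gave 10 genes, the other two being Cyp3a57 and the pseudogene Cyp3a63-ps.

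Polyadenylated RNA of whole liver was sequenced from 4 male MøFoxO1-KO mice (replicates 26 to 29) and 4 male WT littermates (replicates 22 to 25), each replicate being a separate mouse. All 8 mice were C57BL/6 and carried FoxO1 loxP/loxP alleles, and received a NASH-inducing diet from week 6 of life for 25 weeks, with a fast of 16 hours before collection at 31 weeks. MøFoxO1-KO mice also carried Cre under the Lyz2 promoter, which is active in myeloid cells, so hepatocytes were not the target, and no mice with Cre alone were compared. The comparison asks how deletion of FoxO1 in myeloid cells goes with gene expression in the NASH liver.

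CYP3A enzymes sit in the endoplasmic reticulum, mainly of hepatocytes and enterocytes, and oxidize drugs, steroid hormones and bile acids with electrons from NADPH that reach them through cytochrome P450 reductase. Their genes are classical targets of the pregnane X receptor (PXR, encoded by Nr1i2) and the constitutive androstane receptor (CAR, encoded by Nr1i3), which bind DNA with a retinoid X receptor partner. Cyp3a11 is the main drug-inducible member in mouse liver, Cyp3a41 and Cyp3a44 are known for higher levels in females, and Cyp3a16 is known as a fetal and neonatal form. Whole liver RNA was measured, so fewer cells of a type and less RNA per cell cannot be told apart in any value that follows.

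The 8 genes lie on chromosome 5 of GRCm38. In total 7 of them, together with Cyp3a57 and Cyp3a63-ps, form a cluster of 768 kb from 145345279 to 146113287. Of these 9 genes, 7 are on the minus strand, while Cyp3a57 and Cyp3a59 at the ends of the cluster are on the plus strand. Cyp3a13 lies apart, at a distance of 7.42 Mb from the cluster. The cluster also spans 13 other annotated rows, of which 0 passed the filter on low counts. The nearest rows outside it are Gm42636, with 40 counts over all livers at a distance of 50271 bases, and Gm5565, with 0 counts at a distance of 44515 bases. No Cyp3a gene of the 8 shares exon bases with another row of the table, although Gm15502 lies inside the span of Cyp3a13 with 0 shared exon bases.

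**Figure D1:**
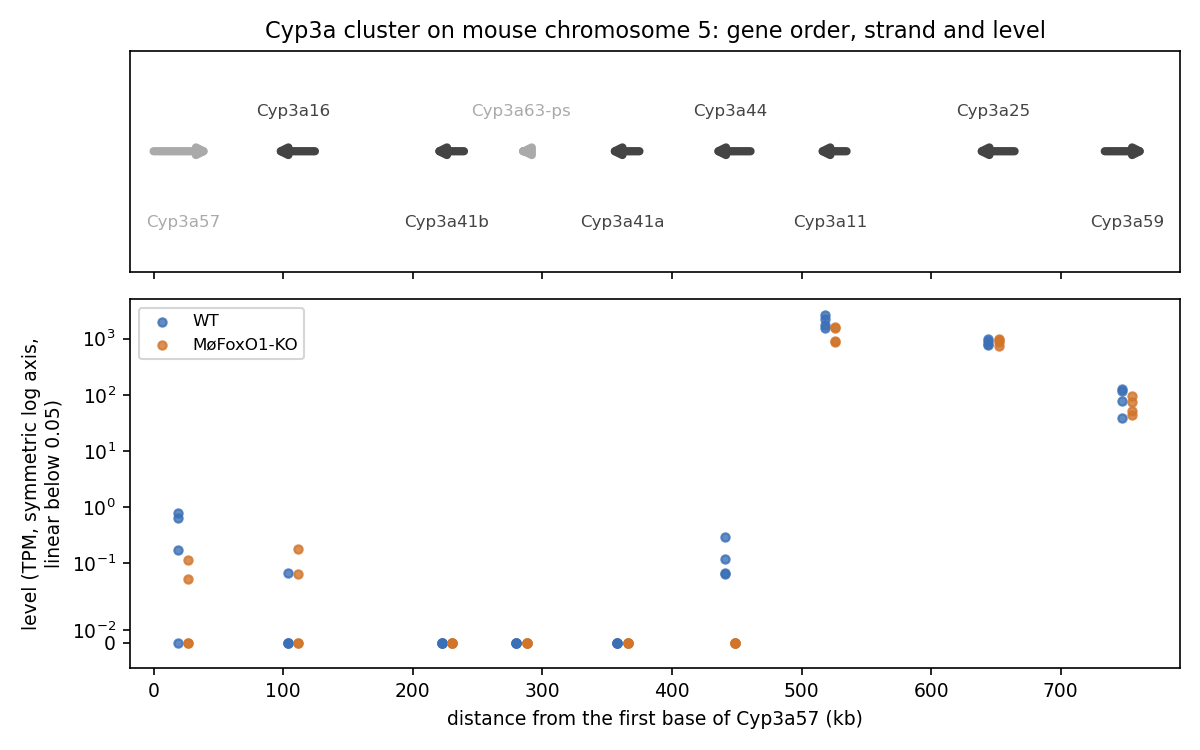
Arrows show the position and strand of the 9 genes of the cluster by distance in kb from the first base of Cyp3a57, with genes outside the 8 in grey, and points show the level of each gene in each liver as TPM, counts scaled to exon length and library size, on a symmetric log axis. Cyp3a11, Cyp3a25 and Cyp3a59 at the right end hold nearly all counts of the cluster, and Cyp3a41a, Cyp3a41b and Cyp3a63-ps lie at 0 in all 8 livers.

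The 250 bases before the start site are shown for 5 genes, to set abundant members beside neighbours at or near 0. None of the marked motifs is confined to the abundant members. RefSeq sequences on GRCm38.p6 were available for all 8 genes. In Cyp3a11 the window reaches into the gene as annotated for the counts, which ends at 145879964. Its positions are therefore not counted from the outermost annotated base. Capitals mark the forkhead core TGTTTAC and the nuclear receptor hexamers AGGTCA and AGTTCA on either strand, so that TGACCT and TGAACT are these hexamers read from the other strand. Sequences run 5′ to 3′ along the gene, from chr5:145879855-145880104, minus strand; chr5:145720137-145720386, minus strand; chr5:145805875-145806124, minus strand; chr5:146009619-146009868, minus strand; and chr5:146079008-146079257, plus strand.
Cyp3a11: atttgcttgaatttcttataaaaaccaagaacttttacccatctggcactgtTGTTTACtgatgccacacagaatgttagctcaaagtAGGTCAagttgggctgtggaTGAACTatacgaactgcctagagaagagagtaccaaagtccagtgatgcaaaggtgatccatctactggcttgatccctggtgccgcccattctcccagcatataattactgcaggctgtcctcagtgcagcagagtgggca
Cyp3a41a: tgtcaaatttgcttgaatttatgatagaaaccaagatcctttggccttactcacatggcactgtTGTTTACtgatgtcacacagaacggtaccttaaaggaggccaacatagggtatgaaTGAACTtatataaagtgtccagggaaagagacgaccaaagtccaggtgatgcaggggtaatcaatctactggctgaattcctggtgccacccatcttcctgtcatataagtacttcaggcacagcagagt
Cyp3a44: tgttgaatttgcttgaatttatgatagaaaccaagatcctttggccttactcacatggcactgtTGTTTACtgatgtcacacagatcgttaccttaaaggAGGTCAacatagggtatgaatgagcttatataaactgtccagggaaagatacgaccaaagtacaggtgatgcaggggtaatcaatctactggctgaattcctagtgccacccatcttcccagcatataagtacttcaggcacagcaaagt
Cyp3a25: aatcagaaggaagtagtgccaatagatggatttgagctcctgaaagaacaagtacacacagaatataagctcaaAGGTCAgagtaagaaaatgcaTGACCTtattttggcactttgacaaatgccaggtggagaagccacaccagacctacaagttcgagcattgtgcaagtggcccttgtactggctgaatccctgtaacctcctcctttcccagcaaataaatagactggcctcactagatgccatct
Cyp3a59: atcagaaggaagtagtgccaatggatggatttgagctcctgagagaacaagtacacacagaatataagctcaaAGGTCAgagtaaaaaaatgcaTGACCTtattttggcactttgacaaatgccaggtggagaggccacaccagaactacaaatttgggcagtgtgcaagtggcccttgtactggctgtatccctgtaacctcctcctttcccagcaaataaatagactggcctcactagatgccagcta

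Cyp3a11, the most abundant member, shared the forkhead letters with neighbours at or near 0. Cyp3a25 and Cyp3a59 shared a pair of hexamers with each other and with Cyp3a57, which was near 0 as well. Cyp3a13 held none of these letters. TGTTTAC, the core to which forkhead factors of the FoxA and FoxO families bind, begins at -198 from the start site in Cyp3a11, at -190 in Cyp3a16 and at -186 in Cyp3a41a, Cyp3a41b and Cyp3a44. It is not among the letters of these windows in Cyp3a13, Cyp3a25 and Cyp3a59. The Cyp3a windows with TGTTTAC are 71.7% (Cyp3a11 with Cyp3a44) to 99.6% (Cyp3a41a with Cyp3a41b) identical, so their matches are not independent. Of 27025 RefSeq promoters (1 per gene), 3.09% hold TGTTTAC in a window of this length on either strand. The hexamer AGGTCA, found in 13.8% of these promoters, occurs at -176 and, on the other strand, at -155 in Cyp3a25, and at -177 and -156 in Cyp3a59. Cyp3a57, outside the 8 genes, holds the same pair at -174 and -153. Cyp3a11 has AGGTCA at -162 and AGTTCA on the other strand at -142, and AGTTCA is found in 11.9% of promoters. Cyp3a41a and Cyp3a41b have only the hexamer AGTTCA, at -130 on the other strand, and Cyp3a44 has only AGGTCA, at -150. Cyp3a13 and Cyp3a16 hold neither hexamer. TTCNNNGAA, a palindrome that STAT factors read, was searched on both strands, and 7.18% of promoters but none of the 8 hold it. STAT palindromes with a spacer of another length were not searched. These matches describe letters, and no binding was measured.

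Upstream sequences were 94.8% identical between Cyp3a25 and Cyp3a59, and 99.6% identical between Cyp3a41a and Cyp3a41b. Cyp3a11 was 71.7% identical to Cyp3a41a and to Cyp3a44 and 52.7% identical to Cyp3a25, and Cyp3a13 was between 47.5 and 56.2% identical to the others. The coding sequences, which are 1509 or 1512 bases long, gave the same grouping. Over the 28 pairs of the 8 genes, coding identity ran from 74.6 to 99.87%. Cyp3a41a and Cyp3a41b differ by 2 substitutions, and Cyp3a25 and Cyp3a59 are 97.5% identical with 38 substitutions. Cyp3a11 is 95.2% identical to Cyp3a41a, 94.9% to Cyp3a44 and 92.8% to Cyp3a16, whereas Cyp3a13 is between 75.1 and 76.8% identical to each of the others.

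Such identity bears on read counts, since a read inside a shared stretch cannot be placed in 1 gene. All windows of 100 bases of the longest coding transcript of each gene were therefore searched in every GENCODE M21 transcript. In Cyp3a41a 9.18% of windows and in Cyp3a41b 11.8% of windows are found in no other gene, and the shared ones are mostly shared between this pair. The corresponding shares are 94.0% in Cyp3a25, 94.4% in Cyp3a59, 94.6% in Cyp3a44 and 99.7% in Cyp3a11. At 50 bases the shares are 73.2% in Cyp3a25, 72.0% in Cyp3a59 and 85.2% in Cyp3a11. The counts of the Cyp3a41 pair are therefore uncertain if reads with several matches were left out, a setting that is not given in the sources used here, and counts of Cyp3a25 and Cyp3a59 could be traded in part at a short read length. The library kit does not mark strand, so reads of a gene and of any antisense RNA could not be told apart.

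**Figure D2:**
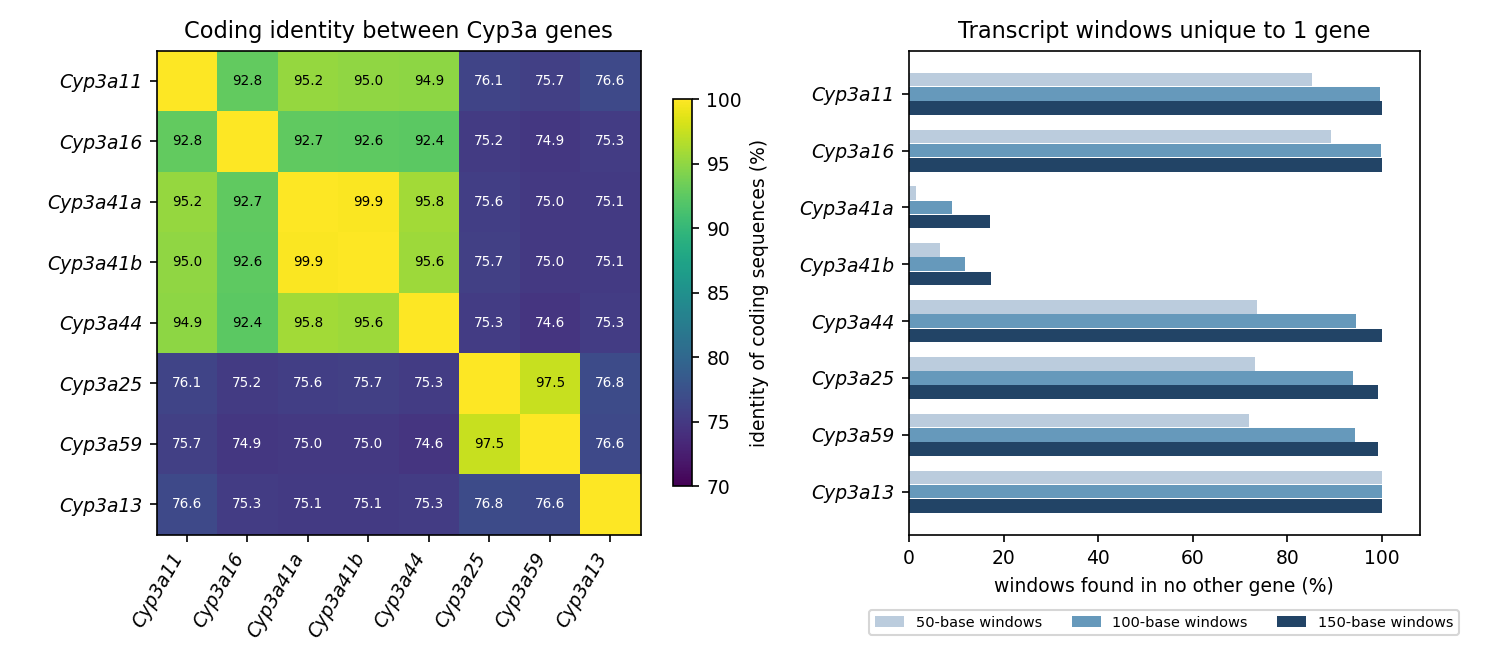
The left panel gives the identity of coding sequences in percent for each pair of the 8 genes, and the right panel gives the percentage of transcript windows of 50, 100 and 150 bases that occur in no other gene. Cyp3a11, Cyp3a16, Cyp3a41a, Cyp3a41b and Cyp3a44 form a block above 92%, and bars of the Cyp3a41 pair stay under 17.4%.

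Total counts per liver lay between 15253218 and 18025481, and Spearman correlations between pairs of livers between 0.933 and 0.980. Foxo1 had between 328 and 467 counts in WT livers and between 253 and 448 in MøFoxO1-KO livers, at -0.17 on the log2 scale (Benjamini-Hochberg adjusted P = 0.686 by edgeR), and whole liver values do not check a deletion in myeloid cells. Liver identity held, with summed normalized counts of 10 hepatocyte markers such as Alb, Apoa1 and Ttr between 1088100 and 1512000 in WT livers and between 1303600 and 1957200 in MøFoxO1-KO livers. Normalized counts are counts divided by the library size after TMM scaling, relative to the mean of the 8 livers.

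In WT and MøFoxO1-KO livers alike, Cyp3a11 and Cyp3a25 carried nearly all Cyp3a reads, Cyp3a59 and Cyp3a13 were lower, and Cyp3a16, Cyp3a41a, Cyp3a41b and Cyp3a44 were at or near 0. On the TPM scale, which divides counts by the summed exon length of a gene, the mean level over 8 livers was 1644 ± 592 (SD, n = 8) for Cyp3a11, rank 66 of all genes. It was 877 ± 105 (SD, n = 8) for Cyp3a25, rank 131. Cyp3a59 followed with a level of 78.5 ± 33.0 TPM (SD, n = 8) and Cyp3a13 with 43.9 ± 21.4 TPM (SD, n = 8). Cyp3a11 had the higher TPM level of the first pair in 7 of 8 livers, Cyp3a25 was above Cyp3a59 in 8 of 8, and Cyp3a59 was above Cyp3a13 in 7 of 8.

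Neighbours in this order thus did not all separate beyond their spread. The log2 ratio of TPM levels of Cyp3a59 over Cyp3a13 had a mean of 0.88 ± 0.99 (SD, n = 8) and ran from -0.66 to 2.47. For Cyp3a11 over Cyp3a25 it was 0.83 ± 0.57 (SD, n = 8). The annotated exons of Cyp3a11 sum to 5093 bases, more than the 2344 bases of its longest coding transcript, which lowers its TPM. With the length of the coding transcript in place of summed exons, an alternative chosen after seeing the data, Cyp3a11 was above Cyp3a25 in 8 of 8 livers and the mean log2 ratio was 1.89.

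Cyp3a11 (ENSMUSG00000056035, chr5:145854426-145879964, minus strand) encodes the principal inducible CYP3A enzyme of mouse liver. WT replicates 22, 23, 24 and 25 had 106890, 85331, 65571 and 65981 normalized counts of Cyp3a11. MøFoxO1-KO replicates 26, 27, 28 and 29 had 40320, 81819, 74358 and 47759 normalized counts. The lowest values belonged to MøFoxO1-KO replicates 26 and 29, the highest to WT replicate 22, and replicates 27 and 28 lay among the WT livers, so the groups overlapped. WT mice averaged 80943 ± 19600 (SD, n = 4), against 61064 ± 20123 (SD, n = 4) for MøFoxO1-KO mice. On the log2 scale the difference, MøFoxO1-KO over WT, was -0.41 (SE 0.26, 95% interval -0.98 to 0.17, Benjamini-Hochberg adjusted P = 0.466 by the quasi-likelihood test of edgeR). An exact two-sided permutation test of the normalized counts gave P = 0.229, where 4 livers against 4 allow no P under 0.0286.

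Cyp3a25 (ENSMUSG00000029630, chr5:145977194-146009618, minus strand) is a further CYP3A enzyme of adult liver. Its normalized counts were 15354, 12568, 11456 and 17478 in WT replicates 22, 23, 24 and 25. In MøFoxO1-KO replicates 26, 27, 28 and 29 they were 18330, 18565, 18179 and 15377. MøFoxO1-KO replicates 26, 27 and 28 stood above every WT liver, and replicate 29 lay between WT replicates 22 and 25. WT mice averaged 14214 ± 2725 (SD, n = 4), against 17613 ± 1499 (SD, n = 4) for MøFoxO1-KO mice. The log2 difference was 0.31 (SE 0.16, 95% interval -0.04 to 0.66, Benjamini-Hochberg adjusted P = 0.362 by edgeR), and the exact permutation test gave P = 0.0571. This gene had the narrowest interval of the 4 tested members, with a biological coefficient of variation of 0.19 beside 0.27 for Cyp3a11, 0.37 for Cyp3a59 and 0.42 for Cyp3a13.

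Cyp3a59 (ENSMUSG00000061292, chr5:146079257-146113287, plus strand) is the near copy of Cyp3a25. WT replicates 22, 23, 24 and 25 had 2006, 1799, 557 and 1323 normalized counts of Cyp3a59. MøFoxO1-KO replicates 26, 27, 28 and 29 had 1745, 1547, 941 and 889. WT livers held both the highest and the lowest value, so the MøFoxO1-KO livers lay inside their range. WT mice averaged 1421 ± 643 (SD, n = 4) and MøFoxO1-KO mice 1280 ± 430 (SD, n = 4). The log2 difference was -0.15 (SE 0.36, 95% interval -0.96 to 0.66, Benjamini-Hochberg adjusted P = 0.871 by edgeR), and the exact permutation test gave P = 0.714.

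Cyp3a13 (ENSMUSG00000029727, chr5:137892932-137921619, minus strand), known from intestine as well as liver, is the member outside the cluster. It had 536, 701, 1304 and 1826 normalized counts in WT replicates 22, 23, 24 and 25 and 1848, 1395, 627 and 728 in MøFoxO1-KO replicates 26, 27, 28 and 29. Each group held a pair of low livers and a pair of high livers, and the ranges nearly coincided. WT mice averaged 1092 ± 590 (SD, n = 4) and MøFoxO1-KO mice 1150 ± 577 (SD, n = 4). The log2 difference was 0.07 (SE 0.43, 95% interval -0.88 to 1.03, Benjamini-Hochberg adjusted P = 0.949 by edgeR), and the exact permutation test gave P = 0.743. Its direction turned in 4 of the 8 fits that each left out 1 liver, and that of Cyp3a59 in 1.

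Of the 4 tested Cyp3a genes, 0 were called at an adjusted P under 0.05 with an absolute log2 fold change over 1.5 (edgeR, Benjamini-Hochberg), where 0.188% of all 13278 tested genes were called. That share rests on 25 genes, and the number of called genes was 174 with DESeq2, 13 with limma-voom and 120 without the filter, and from 3 (without WT replicate 25) to 82 (without MøFoxO1-KO replicate 28) when 1 liver was left out. At an adjusted P under 0.05 alone the count was also 0, beside 0.294% of tested genes. At an unadjusted P under 0.05 it was 0 in edgeR, DESeq2 and limma-voom, beside 16.7% of tested genes in edgeR. Without WT replicate 25, Cyp3a25 reached an unadjusted P of 0.0248 with an adjusted P of 0.240 (edgeR, Benjamini-Hochberg), where its adjusted P over all alternatives lay between 0.240 and 0.600. The groups overlapped for all 4 genes, beside 9.71% of tested genes whose groups did not overlap. The log2 intervals reach 0.66 for Cyp3a25, -0.96 for Cyp3a59, -0.98 for Cyp3a11 and 1.03 for Cyp3a13, so the groups were not shown to be alike.

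**Figure D3:**
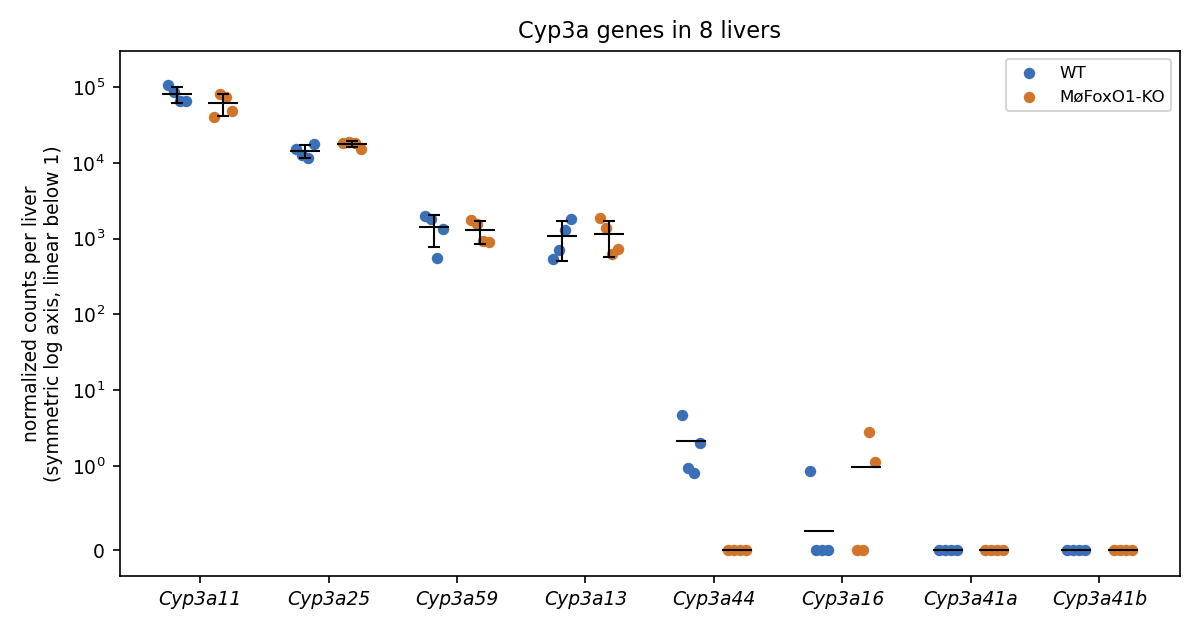
Points give the normalized counts of each of the 8 genes in each WT and MøFoxO1-KO liver on a symmetric log axis that is linear below 1, and black marks give the group mean with the SD for the 4 tested genes. Ranges of both groups overlap for Cyp3a11, Cyp3a25, Cyp3a59 and Cyp3a13, and of the 6 genes with counts only Cyp3a44, at 1 to 5 counts in WT livers and 0 in MøFoxO1-KO livers, shows none.

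**Figure D4:**
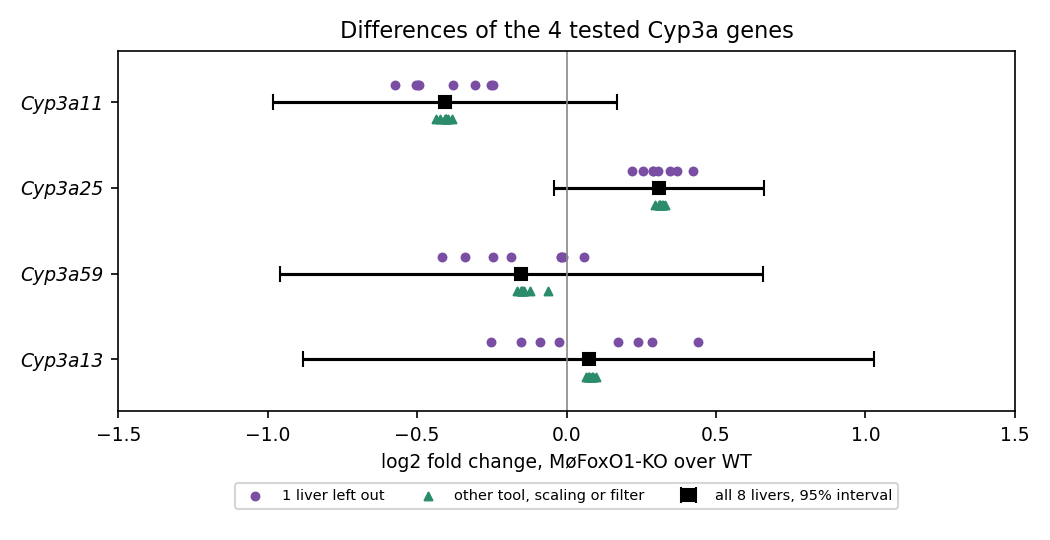
Squares give the log2 fold change of MøFoxO1-KO over WT livers with its 95% interval, dots the 8 fits that each left out 1 liver, and triangles the fits with another tool, scaling or filter. All 4 intervals cross 0, and the dots cross 0 for Cyp3a13 and Cyp3a59 but not for Cyp3a11 and Cyp3a25.

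Cyp3a44 (ENSMUSG00000054417, chr5:145773983-145805874, minus strand) was found at 5, 1, 1 and 2 counts in WT replicates 22, 23, 24 and 25 and at 0 counts in all 4 MøFoxO1-KO livers. The groups did not overlap and an exact permutation test gave P = 0.0286, the smallest it can give, with no adjustment over genes. Any complete separation of 4 livers from 4 gives this P, so it only restates the lack of overlap. Among genes that passed the filter, which Cyp3a44 did not, 9.71% did not overlap. These are 9 reads in all, and a count of 0 allows up to 3 counts per liver, which is 0.166 to 0.197 CPM, counts scaled to library size. In each WT liver the reads equalled 0.00115 to 0.00438% of the Cyp3a11 counts of that liver. Its counts were too low for the test. In the fit without a filter its unadjusted P was 0.0150 and its adjusted P 0.270 (edgeR, Benjamini-Hochberg), and no fold change is given because both groups lie at or under the limit of 3 counts on average.

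Cyp3a16 (ENSMUSG00000038656, chr5:145436309-145469723, minus strand) had 1 count in WT replicate 22, 3 in MøFoxO1-KO replicate 28 and 1 in MøFoxO1-KO replicate 29, and 0 in the other livers. Cyp3a41a (ENSMUSG00000075551, chr5:145694049-145720136, minus strand) and Cyp3a41b (ENSMUSG00000075552, chr5:145558664-145584730, minus strand) were at 0 in all 8 livers, with the same limit of 3 counts per liver for reads that can be placed in 1 copy. The limit covers counting error only. Outside the 8, counts of Cyp3a57 were 3, 12, 10 and 0 across WT replicates 22 to 25, then 1, 2, 0 and 0 across MøFoxO1-KO replicates 26 to 29, and Cyp3a63-ps had 0 in every liver. None of these levels could be compared between groups at this depth, apart from the lack of overlap given for Cyp3a44.

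The composition of the Cyp3a reads was described without a test. Of the summed Cyp3a counts, Cyp3a11 held 82.5 ± 4.34% (SD, n = 4) in the WT group, compared with 74.2 ± 6.76% (SD, n = 4) after deletion. The share of Cyp3a25 was 14.9 ± 3.67% (SD, n = 4) in the WT group, compared with 22.6 ± 5.18% (SD, n = 4). Per liver, the Cyp3a25 share was 12.3, 12.5, 14.5 and 20.2% in WT replicates 22, 23, 24 and 25, and 29.4, 17.97, 19.3 and 23.7% in MøFoxO1-KO replicates 26, 27, 28 and 29. WT replicate 25 lay above MøFoxO1-KO replicates 27 and 28, so the shares overlapped. The log2 ratio of Cyp3a11 over Cyp3a25 counts was 2.50 ± 0.41 (SD, n = 4) for WT mice and 1.74 ± 0.45 (SD, n = 4) for MøFoxO1-KO mice, again with overlap, and the other 5 ratios among the tested genes overlapped as well. The Cyp3a normalized counts summed to 97672 ± 20148 (SD, n = 4) for WT mice and 81107 ± 20705 (SD, n = 4) for MøFoxO1-KO mice, and Cyp3a counts made up between 0.360 and 0.798% of a library.

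Across livers, no pair of the 4 tested genes had a relation that passed an adjusted P of 0.05. Over 8 livers and 6 pairs, the strongest relation was that of Cyp3a11 with Cyp3a13, at Pearson r = -0.523 (exact permutation P = 0.194, adjusted by Benjamini-Hochberg 0.768) and Spearman rho = -0.667 (exact permutation P = 0.0831, adjusted 0.396). Without WT replicate 22 and MøFoxO1-KO replicate 26, the livers farthest from the Cyp3a11 median, r was 0.0493. Leaving out extremes narrows the range, so this does not show that the relation rested on them. Cyp3a11 with Cyp3a59 gave r = 0.291 (exact permutation P = 0.482, adjusted 0.768) and rho = 0.595 (exact permutation P = 0.132, adjusted 0.396). Even the near copies Cyp3a25 and Cyp3a59 gave r = 0.392 (exact permutation P = 0.329, adjusted 0.768) and rho = 0.119 (exact permutation P = 0.793, adjusted 0.793), and r = 0.057 without WT replicates 23 and 24. Groups of 4 livers are too small for a correlation within each genotype.

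Genes whose log2 normalized counts were most like those of each member were ranked by Pearson r over the same 8 livers, among all tested genes outside the family and as a description only. For Cyp3a11 they were Atad3aos (r = 0.963), Cmas (r = 0.942), which encodes the enzyme that activates sialic acid, and Wnt9b (r = 0.938), a Wnt ligand. For Cyp3a25 they were Gm43573 (r = 0.971), C030015A19Rik (r = 0.964) and Lmf1 (r = 0.962), a factor needed for maturation of lipases. For Cyp3a59 they were Acot11 (r = 0.957), an acyl-CoA thioesterase, AI464131 (r = 0.948) and Tmprss6 (r = 0.947), a hepatocyte protease that restrains hepcidin. For Cyp3a13 they were Rps3a1 (r = 0.936), a ribosomal protein gene, Gm4963 (r = 0.932) and Mpzl3 (r = 0.915). Atad3aos, Wnt9b, Gm43573, C030015A19Rik and Gm4963 had group means between 8.48 and 25.9 normalized counts, so their profiles carry much counting error. The r values listed are the highest among all tested genes over 8 livers, so they are large by selection.

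The regulators of Cyp3a genes, nuclear receptors, liver factors and coregulators, were followed next. In MøFoxO1-KO livers, 5 of 20 tested regulators were higher and 15 lower (median -0.14 on the log2 scale), beside a median of -0.01 and 48.3% higher over all tested genes. None passed an adjusted P of 0.05 (edgeR, Benjamini-Hochberg), and 3 of 20 had an unadjusted P under 0.05, which is 15.0% beside the 16.7% of all tested genes. Nr1i2, which encodes PXR, had 1116, 1156, 1106 and 1096 normalized counts in WT replicates 22 to 25 and 953, 1133, 1053 and 862 in MøFoxO1-KO replicates 26 to 29. MøFoxO1-KO livers lay mostly at the lower end of these values, with overlap, at a log2 difference of -0.16 (SE 0.11, Benjamini-Hochberg adjusted P = 0.506 by edgeR). The log2 fold change was -0.03 for Nr1i3, which encodes CAR, -0.07 for the bile acid receptor gene Nr1h4, -0.17 for Rxra, the retinoid X receptor partner, and -0.32 for the hepatocyte factor Hnf4a, with adjusted P values between 0.312 and 0.961 (edgeR, Benjamini-Hochberg). The 3 regulators at an unadjusted P under 0.05 were the corepressor Ncor1 (-0.42), Rxrb (0.24) and the forkhead factor Foxa3 (0.37), with adjusted P values between 0.244 and 0.282 (edgeR, Benjamini-Hochberg).

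Por, the reductase that passes electrons to all microsomal P450 enzymes, differed by 0.28 on the log2 scale (SE 0.15, Benjamini-Hochberg adjusted P = 0.374 by edgeR). Of 6 tested electron transfer genes, 2 were higher and 4 lower. An unadjusted P under 0.05 (edgeR) was reached by 1 of the 6, or 16.7%, beside 16.7% of all tested genes. That gene was Cyb5b, a cytochrome b5 of the outer mitochondrial membrane, at -0.61 (edgeR, Benjamini-Hochberg adjusted P = 0.178). Of 12 tested genes of haem synthesis and breakdown, 9 were higher and 3 lower, with a median of 0.11. Alas1, the rate-limiting enzyme of haem synthesis in liver, was lower in 4 of 4 MøFoxO1-KO livers than in every WT liver, with 4455 ± 171 (SD, n = 4) normalized counts for WT mice and 3266 ± 833 (SD, n = 4) for MøFoxO1-KO mice, yet its adjusted P was 0.259 (edgeR, Benjamini-Hochberg). The later enzymes Alad (0.46) and Urod (0.30) had the opposite sign to Alas1 on the log2 scale, at adjusted P values of 0.178 and 0.234 (edgeR, Benjamini-Hochberg). Both were higher in every MøFoxO1-KO liver than in every WT liver. Groups did not overlap for 3 of the 12 haem genes, beside 9.71% of all tested genes.

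Other genes known as targets of PXR or CAR were mostly lower. This list, like the others given here, was chosen with earlier results of these data known, so its direction is no independent evidence. In MøFoxO1-KO livers 6 of 24 tested were higher and 18 lower (median -0.49 on the log2 scale), and 12 of the 24 had an unadjusted P under 0.05, 2 of them higher and 10 lower, beside 16.7% of all tested genes. The share called over all tested genes was 0.188%. Only Abcc4, an exporter of bile acids and conjugates, was called, with 239 ± 142 (SD, n = 4) normalized counts for WT mice, 33.6 ± 11.9 (SD, n = 4) for MøFoxO1-KO mice and a log2 difference of -2.82 (edgeR, Benjamini-Hochberg adjusted P = 0.0337). The glucuronosyltransferase gene Ugt1a9 (-2.46), the glutathione transferase gene Gstm3 (-2.41), the bilirubin-conjugating Ugt1a1 (-0.52), the carboxylesterase gene Ces2a (0.61) and Cyp2c54 (0.87) had adjusted P values between 0.137 and 0.252 (edgeR, Benjamini-Hochberg). UGT1A genes share their last exons, so counts of Ugt1a1 and Ugt1a9 are uncertain.

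Sex-biased liver genes are given beside the Cyp3a genes because Cyp3a41a, Cyp3a41b and Cyp3a44 are female-predominant forms. Several genes of both lists were known to differ in these samples, so their direction is no independent evidence. All 20 tested female-biased genes were lower in MøFoxO1-KO livers (median -2.26 on the log2 scale), 6 of them called, and all 24 tested male-biased genes were higher (median 1.88), 6 of them called (edgeR, Benjamini-Hochberg), beside 0.188% of all tested genes. At an unadjusted P under 0.05 the shares were 80.0 and 79.2%, beside 16.7%. The 3 lowest and 3 highest of the female-biased genes at an unadjusted P under 0.05 were Hao2 (-5.12), Cyp39a1 (-3.47), Cyp2b13 (-3.46), Tox (-1.18), Fmo1 (-0.63) and Trim24 (-0.59). For the male-biased genes they were Hsd3b5 (6.64), Mup7 (5.31), Mup16 (4.21), Serpina3k (1.51), Ugt2b1 (0.63) and Cyp2d9 (0.59). The tested Cyp3a genes lay between -0.41 and 0.31 on the same log2 scale. The 9 Cyp3a44 reads, all in WT livers, were too few for the test. Cyp3a41a and Cyp3a41b were at 0 in every liver, so this pair shows no direction. In the growth hormone pathway, which sets sex bias in liver, 5 of 11 tested genes were higher and 6 lower with a median of -0.30, and Stat5a (-0.79), Igf1 (0.55) and Igfals (0.69) had an unadjusted P under 0.05 but adjusted P values of 0.0851, 0.176 and 0.152 (edgeR, Benjamini-Hochberg).

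**Figure D5:**
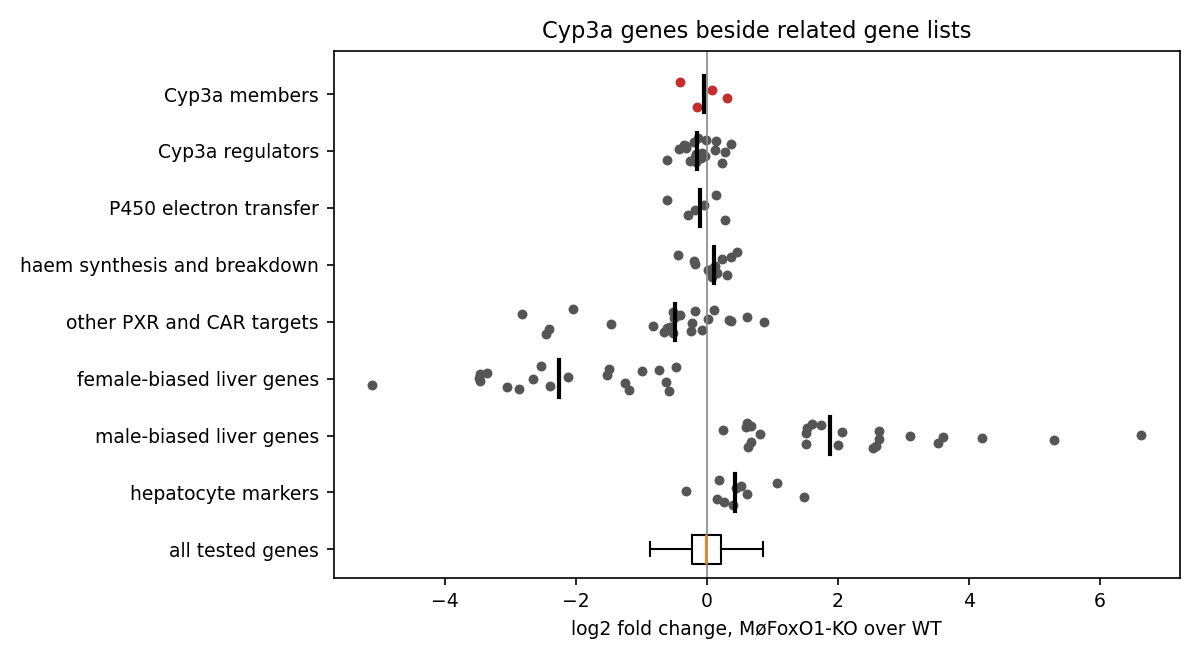
Each point is the log2 fold change of a tested gene in MøFoxO1-KO over WT livers, grouped by list with the median as a black bar, and the box shows all 13278 tested genes with whiskers to the last value within 1.5 box lengths. The 4 Cyp3a genes in red stay between -0.41 and 0.31, inside the whiskers of all tested genes, while the female-biased list lies wholly below 0 and the male-biased list wholly above 0.

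Cell type and zonation markers are given beside these values, and their part in the Cyp3a values was not tested. Over all tested genes, 16.7% had an unadjusted P under 0.05, 0.294% passed the adjusted limit and 0.188% were called (edgeR, Benjamini-Hochberg). Of 10 hepatocyte markers, 9 were higher after deletion (median 0.42 on the log2 scale), 5 of the 10 had an unadjusted P under 0.05 and Serpina1c (1.49) passed the adjusted limit (edgeR, Benjamini-Hochberg adjusted P = 0.037). The other 4 were Apoa1 (1.07), Hpx (0.61), Asgr1 (0.52) and Fgb (0.45). Of 15 macrophage markers, 9 were higher and 6 lower with a median of 0.66 and summed normalized counts from 3143 to 5623 in WT and from 3349 to 14896 in MøFoxO1-KO livers. Of the 15, 46.7% had an unadjusted P under 0.05, among them Marco (5.18), Timd4 (2.08), Vsig4 (1.08), Adgre1 (1.03) and Trem2 (-3.88), and Gpnmb (-4.13) was called (edgeR, Benjamini-Hochberg adjusted P = 0.0382). Pericentral hepatocyte genes, a zone where Cyp3a11 is known to be high, split into 8 higher and 6 lower of 14 with a median of 0.07, Slc1a2 (-1.03), Rgn (0.47) and Cyp1a2 (0.61) having an unadjusted P under 0.05. Periportal genes split into 9 higher and 5 lower of 14 with a median of 0.10, and Cyp2f2 (0.71) had an unadjusted P under 0.05. Of 10 stellate and fibroblast markers 6 were lower, with Col1a1 (-1.28), Col1a2 (-0.76) and Col3a1 (-0.76) at an unadjusted P under 0.05, and 0 of the tested sinusoidal endothelial, cholangiocyte, lymphocyte and neutrophil markers reached it. No marker of these lists was at 0 in every liver. None of the zonation genes passed an adjusted P of 0.05 (edgeR, Benjamini-Hochberg).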

How the data were processed

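Reads per gene were counted by the authors, and the deposited table holds whole-number counts without normalization for 8 livers, 4 per genotype. STAR, featureCounts and mm10 are named in the submitters' processing notes without versions. Neither strand setting nor handling of reads with several matches is given in the sources used here. Symbols came from GENCODE M21. Genes were filtered with filterByExpr (minimum count 10, minimum total 15), scaled by TMM and compared by the quasi-likelihood test of edgeR 4.0.16 in R 4.3.3 on 13278 genes, with Benjamini-Hochberg adjustment, without covariates and without robust estimation. Intervals are at 95%. Permutation tests were exact and two-sided in scipy 1.17.1. TPM used summed exon lengths.

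Alternatives were DESeq2 1.42.0, limma-voom (limma 3.58.1), DESeq2 size factors, upper-quartile factors, no filter, at least 10 counts in every liver, robust estimation, adjusted P limits of 0.05 and 0.1 without a limit on the fold change, the Cyp3a41 pair summed, and each liver left out. The edgeR, DESeq2 and limma-voom fits were tested on simulated counts. Sequences were aligned with Biopython 1.88. Named genes were the Cyp3a genes, list members at an unadjusted P under 0.05 (for lists with over 6 of these, the 3 highest and 3 lowest), 6 fixed regulators and partners, Foxo1, cluster neighbours and the 3 genes most like each member. Members and lists were chosen with earlier results of these data known. P values set differences between groups, or relations between genes, against the variation between these 8 mice. In edgeR that variation is estimated with information from all tested genes.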

Additional observations from a re-analysis of the deposited data

Results flagged for a closer look

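Of 11 groups of 4 livers with at least 1 Cyp3a count, 2 held a liver far from the other 3 by Dixon's test, which by chance marks about 1 in 20 groups of continuous values. Cyp3a25 was lowest in MøFoxO1-KO replicate 29, at 15377 normalized counts beside 18179 to 18565 in the other MøFoxO1-KO livers. For Cyp3a16, WT replicate 22 stood at 0.937 normalized counts and the other WT livers at 0. This is a single read, and any single read among zeros is marked by construction, so it says nothing about that liver.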

How the results depend on the processing

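In all 18 alternatives, 0 Cyp3a genes were called. Directions of Cyp3a11 and Cyp3a25 held in 16 of 16 alternatives, with log2 fold changes without 1 liver from -0.57 (without MøFoxO1-KO replicate 27) to -0.25 (without WT replicate 22) and from 0.22 to 0.42, and adjusted P from 0.405 to 0.714 and from 0.240 to 0.600. Cyp3a13 reversed in 4 fits that left out a liver, with a range from -0.25 (without MøFoxO1-KO replicate 26) to 0.44 (without WT replicate 25). Cyp3a59 reversed in 1, with a range from -0.42 (without WT replicate 24) to 0.060 (without WT replicate 22). The share of Cyp3a11 in the summed per-length Cyp3a level was 60.6%, 78.3% without length and 75.9% with coding transcript length, chosen after seeing the data; the length used is the cause by construction. Genes with under 10 counts per liver could not be compared, and reads of the Cyp3a41 pair may be lost.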
